A study of Arabidopsis thaliana with 16 samples.

Results

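The cytosolic ribosome of plants is built from proteins that are nearly all encoded by small families of nuclear paralogs, and 49 genes of such families, of the 34262 features counted, are described here. They were taken by locus identifier from a fixed list, and all 49 were found in the count files and in the RefSeq annotation. The list holds 26 genes for proteins of the large subunit, 20 for proteins of the small subunit and the 3 genes of RACK1, and they fall into 27 families, 17 of which have at least 2 listed paralogs. Samples came from 20-day-old Col-0 plants of Arabidopsis thaliana, harvested whole from agar plates kept at 22 °C. The cold group had been kept at 4 °C for 24 h and the control group was untreated. Both groups gave 3 mRNA libraries, 2 libraries of polysomal RNA and 3 lists of m6A peaks, 16 samples in all. No transgene, mutation or other agent is named in the labels, and nothing in them says that replicates came from separate plates or plants, so the p-values describe only how far these samples vary, part of which may be technical.

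Ribosomal proteins are made in step with growth, and their mRNAs are among the most abundant in growing plant tissue. Paralogs of one protein can replace each other in a ribosome, so the proportions of their mRNAs bear on which version of a ribosome can be built. RACK1, a scaffold protein with WD repeats, sits on the head of the small subunit and is counted here with the ribosomal proteins. Polysomal RNA is the RNA recovered together with ribosomes. N6-methyladenosine (m6A) is a base modification of mRNA that in plants lies mostly near the stop codon and in the 3′ UTR.

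Promoters of plant ribosomal protein genes are known for a pair of short elements, the site II element (TGGGCC or TGGGCT) and the telo box (AAACCCTA). Both were searched on both strands in the 250 bases before the annotated start of each gene, with sequence and annotation from RefSeq (TAIR10.1). A site II element was found before 32 of the 49 genes (65.3%), before 124 of 179 other ribosomal protein genes (69.3%) and before 5264 of all 27443 coding genes (19.2%). The telo box was found before 6 of the 49 (12.2%), 42 of the 179 (23.5%) and 1231 of all coding genes (4.49%). The promoters of the RACK1 genes and of the S24 pair are shown because these families had the largest changes of paralog proportions in the cold. They lie at chr1:6221951-6222200 (RACK1A, plus strand), chr1:17983378-17983627 (RACK1B, minus strand), chr3:6212552-6212801 (RACK1C, minus strand), chr3:1360587-1360836 (AT3G04920, plus strand) and chr5:10070900-10071149 (AT5G28060, minus strand). Each is written 5′ to 3′ on the strand of its gene, with matches to site II, in either orientation, in capitals.
RACK1A: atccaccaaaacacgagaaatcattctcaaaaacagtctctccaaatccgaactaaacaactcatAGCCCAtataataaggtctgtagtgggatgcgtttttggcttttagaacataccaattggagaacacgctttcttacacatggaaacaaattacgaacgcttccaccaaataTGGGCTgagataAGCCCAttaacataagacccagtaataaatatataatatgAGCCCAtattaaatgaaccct
RACK1B: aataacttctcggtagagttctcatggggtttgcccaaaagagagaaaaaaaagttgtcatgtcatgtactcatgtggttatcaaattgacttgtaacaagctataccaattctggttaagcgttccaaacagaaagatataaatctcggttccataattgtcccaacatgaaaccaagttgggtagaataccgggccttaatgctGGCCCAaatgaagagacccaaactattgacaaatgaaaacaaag
RACK1C: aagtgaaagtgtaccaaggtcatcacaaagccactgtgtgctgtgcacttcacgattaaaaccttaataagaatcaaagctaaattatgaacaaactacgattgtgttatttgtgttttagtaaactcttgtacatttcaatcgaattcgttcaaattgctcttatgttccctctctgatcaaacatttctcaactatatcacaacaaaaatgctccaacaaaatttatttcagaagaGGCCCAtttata
AT3G04920: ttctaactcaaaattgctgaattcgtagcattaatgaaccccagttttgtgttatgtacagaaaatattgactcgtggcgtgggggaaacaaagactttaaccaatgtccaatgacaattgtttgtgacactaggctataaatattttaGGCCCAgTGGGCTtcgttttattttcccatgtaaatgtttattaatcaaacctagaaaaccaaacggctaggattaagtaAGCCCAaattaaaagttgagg
AT5G28060: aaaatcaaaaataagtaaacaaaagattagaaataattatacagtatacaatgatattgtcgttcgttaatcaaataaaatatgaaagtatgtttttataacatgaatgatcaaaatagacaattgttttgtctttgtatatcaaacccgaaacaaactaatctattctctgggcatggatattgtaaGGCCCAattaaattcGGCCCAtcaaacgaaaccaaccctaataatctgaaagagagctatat
RACK1A held 4 matches against 1 each before RACK1B and RACK1C, and AT3G04920 held 3 against 2 before AT5G28060. None of these 5 windows held the telo box, and no matches overlapped each other. A match describes letters only, and these data do not test whether a factor binds there.

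Gene counts summed to between 3282574 and 10965304 in the mRNA libraries and to between 12984431 and 22200225 in the polysomal ones. Cold mRNA library 3 was the shallowest, with 82.2% of its tallied reads aligned to more than 1 place and 22.1% of its gene counts from organelles, where the remaining mRNA libraries had 61.9% to 66.3% and 6.28% to 8.7%. Levels are given as CPM, counts scaled to the size of the library, with edgeR's TMM scaling, which sets libraries to a common level over most genes. Leaf markers were high in every library (RBCS1A at 8990 to 29597 CPM), and the flower markers summed to at most 7.06 CPM. The 5 seed storage genes summed to 15.1 CPM in control polysomal library 1 and to at most 2.97 CPM in the others; CRU2 and SESA1 were at 0 throughout, and PAP85 fell in polysomal RNA (edgeR adjusted p = 0.0269), a call lost without control library 1. The 5 root markers summed to 1533, 1447 and 761 CPM in control and 1154, 965 and 778 CPM in cold mRNA, and to 1267 and 806 CPM in control and 498 and 375 CPM in cold polysomes. Their median log2 fold change was -0.45 in mRNA, with 1 of 5 called lower (TIP2;3; 0 without any 1 library other than control library 3), and -1.35 in polysomal RNA, with none called by edgeR, 3 lower by unadjusted p under 0.05 and 3 called lower by DESeq2. The part of such shifts between tissues in the changes of the 49 genes was not tested.

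The 49 genes together held 1.65%, 1.42% and 1.28% of the gene counts in the control mRNA libraries 1 to 3, and 1.96%, 1.81% and 1.47% in the cold ones. They held 1.14% and 1.18% in the control polysomal libraries, and 2.77% and 1.45% in the cold ones. Cold polysomal library 1 stood apart: all 49 genes were higher in it than in cold polysomal library 2, by a median of 0.89 on the log2 scale, where all tested genes had a median of 0.01. The 2 control polysomal libraries differed by a median of -0.03 over the same 49 genes. Every polysomal result below rests in part on that library, and its part was not tested beyond leaving it out. In bulk RNA, a change in the RNA per cell and a change in the number of cells that carry it cannot be told apart.

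**Figure D1:**
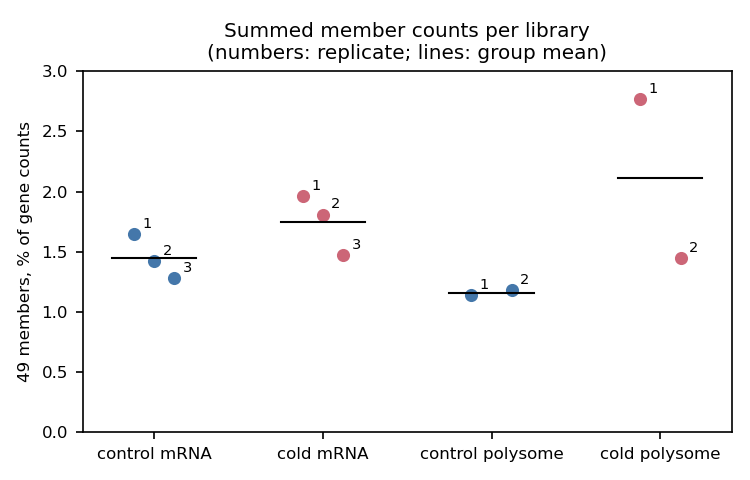
Share of the gene counts held by the 49 genes (vertical axis, %) in each library (points, numbered by replicate), by group (horizontal axis), with lines at the group means. Cold polysomal library 1 is at 2.77% and library 2 at 1.45%, while the control polysomal libraries are at 1.14% and 1.18%.

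In mRNA, 19 of the 49 genes rose in the cold and 0 fell (edgeR's quasi-likelihood test, adjusted p of at most 0.05 over 19261 genes). Over all tested genes, 13.4% rose and 12.3% fell. By unadjusted p under 0.05, 33 of the 49 were higher and 1 was lower, and no share over all genes was taken at that threshold. DESeq2 called 23 of the 49 higher and 0 lower, where it called 14% of all genes higher and 13% lower. The median log2 fold change was 0.42 over the 49 genes and -0.02 over all genes. The genes that rose were 12 of 26 for the large subunit, 5 of 20 for the small subunit and 2 of 3 for RACK1. For 42 of the 49, all cold mRNA libraries lay above all control ones, against 25.8% of all tested genes. The count depends on scaling and on single libraries. When libraries were scaled by their totals, 3 genes rose (RACK1C, AT1G33120 and RPL24A), the median of all genes moved from -0.02 to -0.18, and the calls over all genes moved from 2586 higher and 2363 lower to 1363 higher and 2870 lower. Of all genes, 7.08% rose under that scaling. Leaving out control mRNA library 2, cold library 1 or cold library 2 left 3, 4 and 6 of the 49, where 7.33%, 8.09% and 8.18% of all genes rose, so that in the first 2 of these fits the count was near or below the share over all genes. Leaving out control library 3 left 11, where 11.9% of all genes rose.

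**Figure D2:**
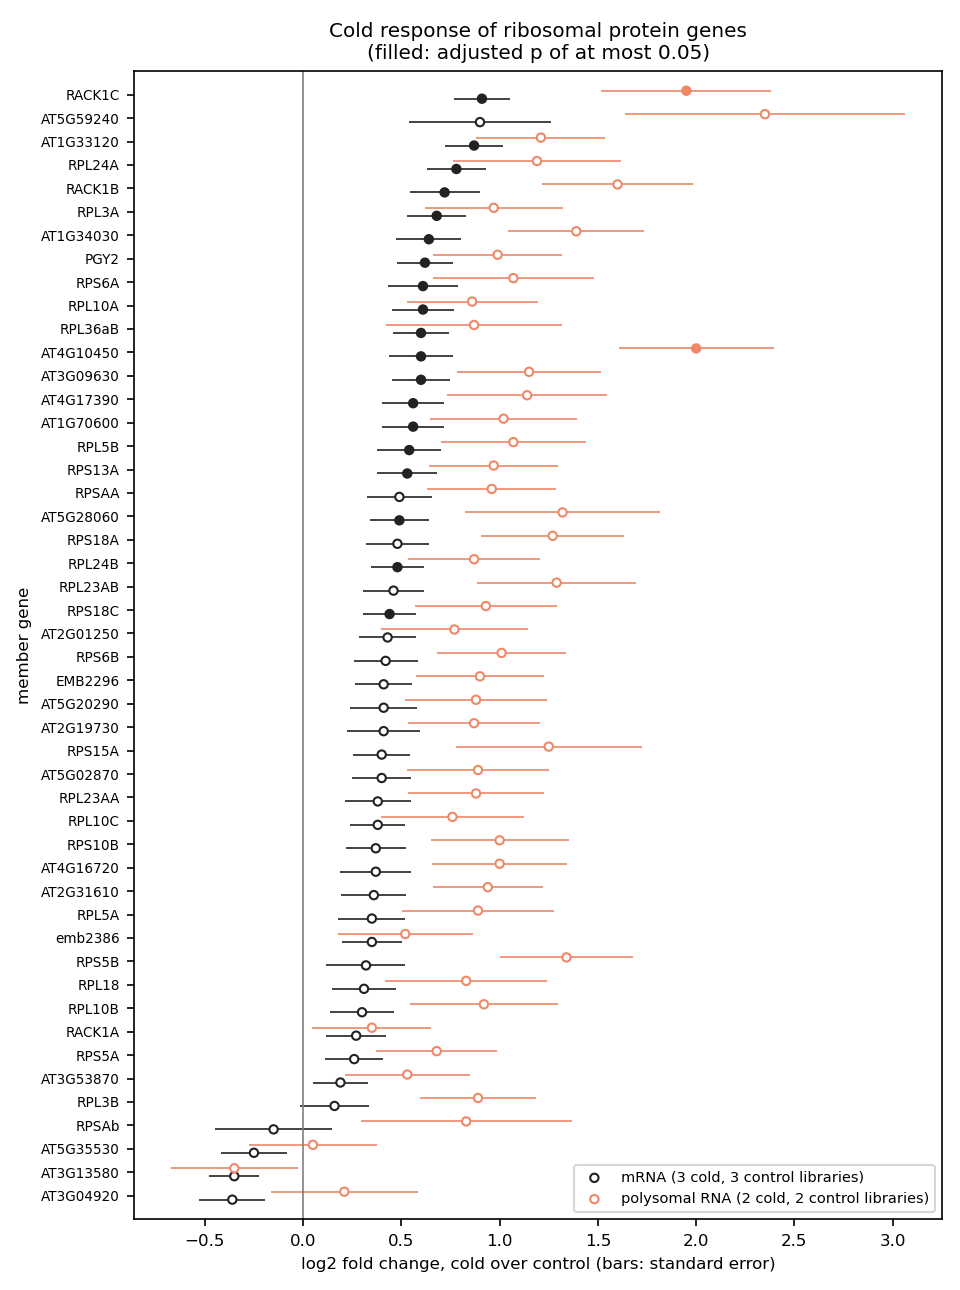
Log2 fold change of cold over control (horizontal axis) for the ribosomal protein genes shown (vertical axis) in mRNA (black) and polysomal RNA (orange), with standard errors as bars and filled points for an adjusted p of at most 0.05. In mRNA 4 genes lie below 0 and 19 are filled; in polysomal RNA 1 lies below 0 and 2 are filled.

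RACK1C had the largest rise among the genes called in mRNA. It stood at 81.3, 77.7 and 69.2 CPM in control mRNA and at 167, 135 and 148 CPM in the cold, so that the groups did not overlap (log2 fold change 0.91, SE 0.143, edgeR adjusted p = 0.00325). RACK1B went from 113, 88.4 and 82.6 CPM in control to 192, 156 and 144 CPM in the cold (0.72, SE 0.178, edgeR adjusted p = 0.019). RACK1A, the most abundant of the 3, was at 331, 319 and 260 CPM in control and 362, 356 and 436 CPM in the cold. Its groups did not overlap either, but the difference did not pass the test (0.27, SE 0.153, edgeR adjusted p = 0.231). The call of RACK1C held without each mRNA library in turn, while that of RACK1B was lost without cold library 1, cold library 2 or control library 2.

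Among large-subunit genes, AT1G33120 and PGY2, which encode L9, both rose. AT1G33120 went from 98.7, 86.3 and 75.7 CPM in control mRNA to 162, 154 and 186 CPM in the cold (0.87, SE 0.148, edgeR adjusted p = 0.00449). PGY2, known from mutants with altered leaf shape, went from 146, 121 and 120 CPM to 207, 191 and 226 CPM (0.62, SE 0.141, edgeR adjusted p = 0.0143). The coding sequences of this pair are 99.1% identical and 50.8% of the 100-base windows of AT1G33120 also occur in PGY2. Reads that fit both were given to neither, so their levels rest on the remaining sequence and are uncertain. The other 47 genes shared under 1% of their windows with any other locus.

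RPL24A, a gene for L24 of the large subunit, went from 205, 192 and 159 CPM to 341, 300 and 365 CPM (0.78, SE 0.151, edgeR adjusted p = 0.00729). RPL3A, for L3, which lies close to the peptidyl transferase centre, went from 681, 619 and 537 CPM to 1075, 1018 and 1012 CPM (0.68, SE 0.151, edgeR adjusted p = 0.0125). In both genes every cold library was above every control library. Of the small subunit, AT1G34030, for S18, went from 152, 133 and 102 CPM to 217, 203 and 214 CPM (0.64, SE 0.165, edgeR adjusted p = 0.0227). The calls of AT1G33120 and RPL24A held without each mRNA library in turn. That of PGY2 was lost without control library 2, that of RPL3A without cold library 1 or control library 2, and that of AT1G34030 without cold library 1, cold library 2 or control library 2. The other genes that rose had log2 fold changes of 0.44 (RPS18C) to 0.61 (RPS6A and RPL10A). RPS6A encodes S6, the small-subunit protein phosphorylated downstream of TOR kinase. The 4 genes below 0 in mRNA were AT3G04920 (-0.36), AT3G13580 (-0.35), AT5G35530 (-0.25) and RPSAb (-0.15), and none passed the test.

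In polysomal RNA 2 of the 49 genes rose and 0 fell by the same test over 19239 genes, of which 3.87% rose and 3.95% fell. AT4G10450, the third gene for L9, went from 48.3 and 50.3 CPM in control to 271 and 125 CPM in the cold (log2 fold change 2.00, SE 0.395, edgeR adjusted p = 0.0387). RACK1C went from 55.9 and 47.7 CPM to 283 and 118 CPM (1.95, SE 0.433, edgeR adjusted p = 0.0489). For each gene both cold libraries were above both controls, and cold library 1 was the higher. The calls of both genes were lost when either control library was left out. By unadjusted p under 0.05, 35 of the 49 were higher and 0 lower, again with no share over all genes taken at that threshold. The median log2 fold change was 0.94 over the 49 genes and -0.02 over all genes. For 43 of the 49, both cold polysomal libraries lay above both controls, against 29.5% of the genes tested in mRNA.

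The number of polysomal calls turned on the 2 cold libraries. Without cold library 1 the median fell to 0.50 and 2 genes were called, near the 3.71% of all genes that rose. Without cold library 2 it was 1.32 and 41 were called, where 8.03% of all genes rose. In these fits the lone cold library was assumed to vary as the controls do. DESeq2 called 29 of the 49 higher and 0 lower, and 8.91% of all genes higher and 7.61% lower. RACK1B, at 67.7 and 66 CPM in control and 277 and 130 CPM in the cold, came next in size after these and the low-level AT5G59240, but did not pass the test (1.60, SE 0.386, edgeR adjusted p = 0.0569).

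Whether the cold response differed between polysomal RNA and mRNA was tested as an interaction over all 10 libraries and 20001 genes, of which 0.065% were called with a larger change in polysomes and 0.22% with a smaller one. None of the 49 genes passed edgeR's test. An unadjusted p under 0.05 was found for 3, all with a larger rise in polysomes, and no share over all genes was taken there. DESeq2 called 1 with a larger change in polysomes, where it called 0.98% of all genes with a larger and 1.6% with a smaller change. The edgeR estimate was above 0 for 48 of the 49, with a median of 0.43, where all genes had a median of -0.05. The share of all genes above 0 was not taken. Without cold polysomal library 1 the median of the 49 was -0.04, where all genes had -0.07. Of the 49, 20 were then above 0 and 29 below, so the direction rests on that library.

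The ratio of polysomal to mRNA level differed widely between genes in the control seedlings. On the log2 scale its median over the 49 genes was -0.20 in control and 0.18 in the cold, where all genes tested in mRNA had -0.01 and 0.00. RPS15A, for S15a of the small subunit, had a low ratio, at -1.09 in control and -0.32 in the cold. It stood at 229, 200 and 178 CPM in control mRNA and at 134 and 67 CPM in control polysomes. RPL24B had the highest, at 0.62 and 0.89, with 244, 227 and 207 CPM in control mRNA and 328 and 366 CPM in control polysomes. RPL24B is known for its part in restarting translation after upstream reading frames. The mRNA libraries were labelled as polyA RNA and the polysomal ones as total RNA, so the ratio also carries that difference between library types, and no test was made of it.

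**Figure D3:**
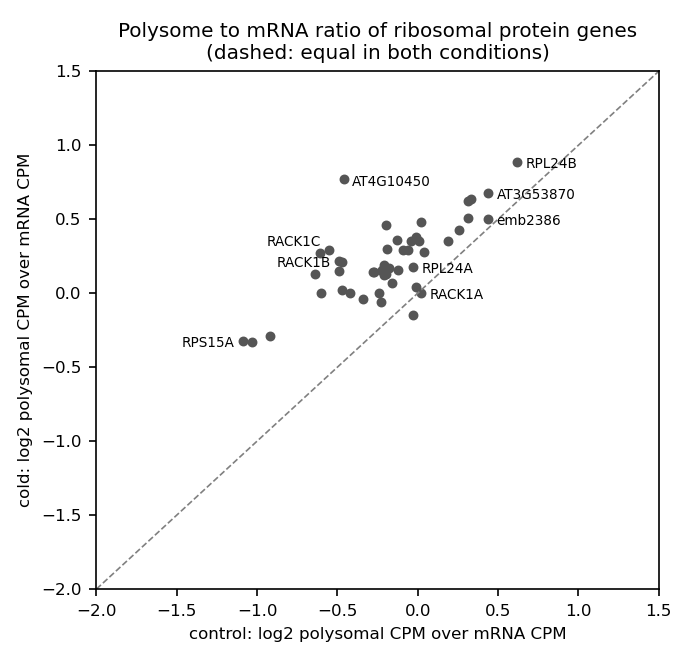
Log2 ratio of polysomal to mRNA CPM (with 0.5 added) in control (horizontal axis) and cold (vertical axis) seedlings, 1 point per gene shown, with a dashed line where the conditions are equal. RPL24B is highest in both conditions, and RPS15A lies at -1.09 in control and -0.32 in the cold; the cold ratios include cold polysomal library 1.

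Paralogs of one protein differed in level, in places by orders of magnitude. Per kb of exon, the highest and the lowest of the 49 genes in control mRNA both encode S8: AT5G20290 had a mean of 702 CPM per kb and AT5G59240 one of 2.52 CPM per kb. The median over the 49 was 209 CPM per kb. RPL3A made up 96.4%, 95.1% and 95.8% of the listed L3 counts per kb in control mRNA, and RPSAA made up 97.6%, 98.1% and 97.6% of those for Sa. In L4 the pair was nearly even, with AT3G09630 at 49.2%, 49.8% and 51.2%. A share is a ratio within a library, so the scaling between libraries does not enter it.

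For 11 of the 27 shares tested, cold and control differed in an exact two-sided permutation test within mRNA and within polysomal RNA, with p adjusted over the 27 shares (p = 0.0167, the smallest that 120 arrangements can give, adjusted p = 0.0409 for each). In a pair 1 share was tested, since the other mirrors it, and in a family of 3 all were, although they sum to 100%, so shares of the same family are not separate findings. The families were listed with earlier results of these libraries known, so the tests describe these libraries. Without control mRNA library 3, 0 of 27 passed after adjustment while 13 had an unadjusted p of at most 0.05; without any other single library, 9 to 12 passed.

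The largest shift was in RACK1. RACK1A held 62.5%, 65.2% and 62.5% of the RACK1 counts per kb in control mRNA and 49.5%, 54.4% and 59.2% in the cold. In polysomal RNA it held 70% and 73.1% in control and 45.1% and 54.9% in the cold. All cold libraries were below all control libraries in both kinds of RNA, with a difference of -9.00 points in mRNA and -21.54 points in polysomal RNA (exact permutation test, adjusted p = 0.0409). RACK1C rose from a mean of 16.6% ± 0.703 (SD, n = 3) to 22.1% ± 1.55 (SD, n = 3) in mRNA and from 12.6% ± 1.62 (SD, n = 2) to 24.9% ± 4.49 (SD, n = 2) in polysomes, and passed the exact permutation test with the same adjusted p. The share of RACK1B, with a mean of 20% in control and 23.5% in cold mRNA, overlapped between groups in mRNA and did not pass (exact permutation test, adjusted p = 0.0964). The coding sequence of RACK1A is 80.4% and 80.1% identical to those of RACK1B and RACK1C, which are 87.7% identical to each other.

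In the S24 pair of the small subunit, where 1 share mirrors the other, AT5G28060 gained. It held 63.5%, 63.6% and 65.1% in control mRNA and 74.9%, 74.1% and 79.5% in the cold. In polysomes it held 65% and 56.6% in control and 78.7% and 75.5% in the cold. No cold library overlapped a control library, and the share of AT3G04920 fell by as much, a mean of 14.19 points over both kinds of RNA (exact permutation test, adjusted p = 0.0409). As levels in mRNA, AT5G28060 went from 303, 256 and 231 CPM to 397, 351 and 421 CPM and passed the test (log2 fold change 0.49, SE 0.152, edgeR adjusted p = 0.0441). That call was lost without any 1 of the 5 libraries other than control library 1. AT3G04920 went from 230, 193 and 163 CPM to 175, 162 and 143 CPM, which overlapped and did not pass (-0.36, SE 0.168, edgeR adjusted p = 0.152). In polysomal RNA both genes lay above 0, at 1.32 (AT5G28060, SE 0.495, edgeR adjusted p = 0.142) and 0.21 (AT3G04920, SE 0.373, edgeR adjusted p = 0.753), and neither passed.

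Of the 3 genes for S3, which lies where mRNA enters the small subunit, AT5G35530 lost share and AT2G31610 gained it. AT5G35530 held 24.9%, 23.2% and 22.1% in control mRNA and 17.7%, 18.4% and 16.8% in the cold, and 18.9% and 17.9% against 13.7% and 11.4% in polysomes. AT2G31610 held 32.6%, 31.1% and 31.4% in control mRNA and 37.9%, 36.7% and 34.5% in the cold, and 27.5% and 23.7% against 31.9% and 34.1% in polysomes. Both passed the exact permutation test (adjusted p = 0.0409), and AT3G53870 did not (adjusted p = 0.867). AT3G53870 was instead higher in polysomes than in mRNA in both conditions, at means of 56% against 44.9% in control and 54.5% against 45.9% in the cold. The L24 pair also differed between the kinds of RNA: RPL24A held 42.9%, 43% and 40.7% of it in control mRNA and 32.4% and 31.1% in control polysomes, with no overlap and no test made.

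For L7 of the large subunit, AT3G13580 held 18.8%, 18.3% and 20.9% of the listed pair in control mRNA and 10.9%, 13.3% and 12.5% in the cold. In polysomes it held 18.2% and 13.9% in control and 7.85% and 8.31% in the cold. Its share fell (exact permutation test, adjusted p = 0.0409), and it fell by 6.59 points when the other genes annotated for L7 were added. Among those, the added AT1G80750 gained 6.14 points, and the share of AT2G01250, the other listed gene, then fell by 4.32 points where it had gained 7.53 within the pair. These added families were chosen after the data were seen.

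In L9, PGY2 held 49.9%, 49.2% and 50.2% in control mRNA and 46.1%, 46.6% and 48% in the cold. In polysomes it went from 50% and 49.8% to 40.5% and 42.6%, and the fall passed the exact permutation test (adjusted p = 0.0409). AT4G10450 held 13.3% and 16.3% in control polysomes and 26% and 21.8% in cold ones, while its share in mRNA overlapped between the groups. Over both kinds of RNA its share did not pass (exact permutation test, adjusted p = 0.313). The shares of AT1G33120 and PGY2 carry the uncertainty of their shared sequence. The other shares that passed the exact test were AT3G09630 in L4 (3.85 points), RPL5A in L5 (-3.40), AT1G34030 in S18 (3.52) and AT5G20290 in S8 (-0.18), each with an adjusted p of 0.0409.

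**Figure D4:**
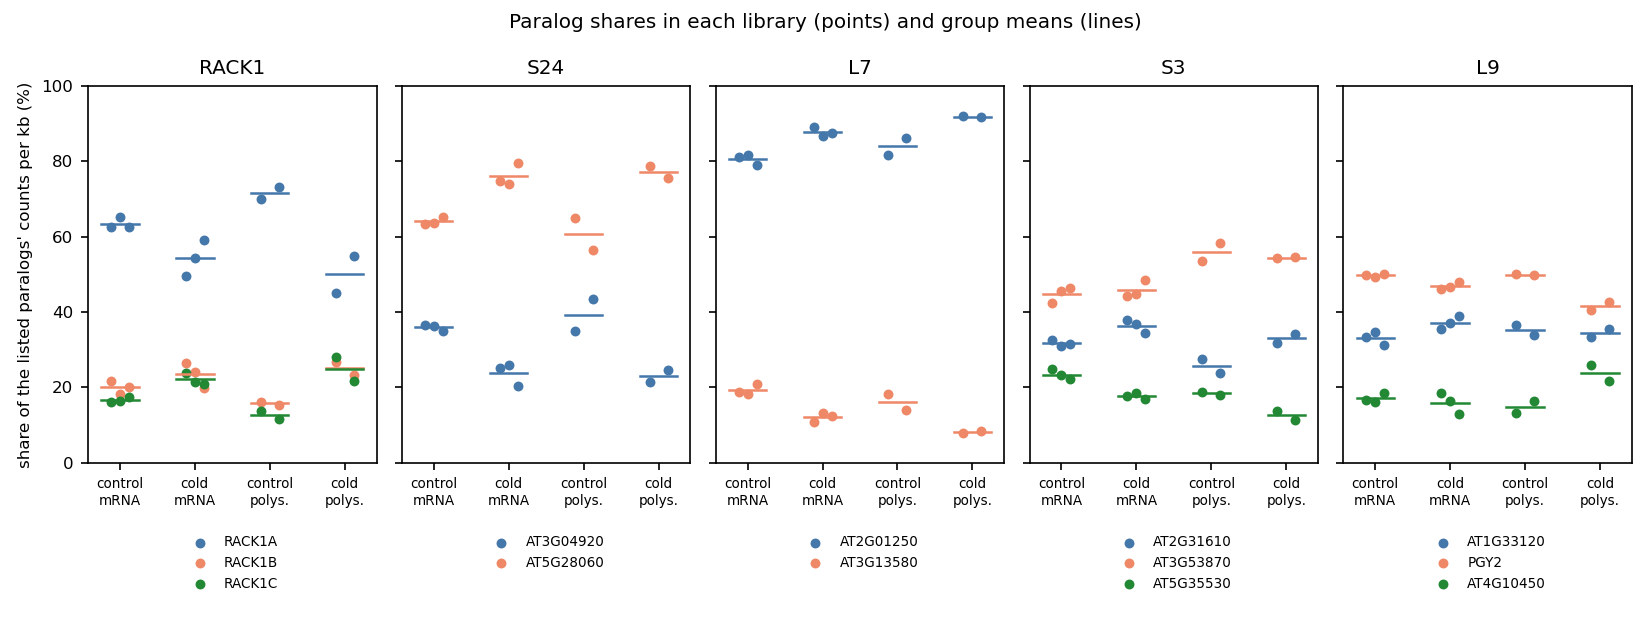
Share of each listed paralog in the counts per kb of its family (vertical axis, %) in every library (points) and as group means (lines), for the 5 families whose shares moved most. RACK1A lies at 62.5% to 65.2% in control and 49.5% to 59.2% in cold mRNA, and AT5G28060 of S24 lies at 63.5% to 65.1% in control and 74.1% to 79.5% in cold mRNA.

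Over the 10 libraries, the genes whose log2 CPM was most like that of RACK1A were RPL24A (Pearson r = 0.935), RPL36aB (0.931) and RPSAA (0.915). The measure describes 10 libraries from 4 groups that share the difference between conditions and between kinds of RNA.

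m6A peaks were counted for a gene when their summit lay in it with a q of at most 0.05, and a gene was called when this held in at least 2 of the 3 lists of a condition. Peak fold enrichments are the authors' values. The strand in the peak names was opposite to that of the gene for nearly all peaks, 43527 against 837 in a single coding gene, and was reversed here. Of the 49 genes, 11 were called in control (22.4%), where 36.4% of all genes tested in mRNA were called, and 7 in the cold (14.3%), against 30% of all genes. Of the 1304 most abundant genes, those averaging 7 or more in log2 CPM, 36.9% were called in control and 27.5% in the cold. The third cold list was short, with 3578 peaks at this q against 7073 to 9457 in the other lists and held 2 of the 49 genes. Without the limit on q, 48 of the 49 were called in control and 47 in the cold, where 91.2% and 89.7% of the abundant genes and 73.7% and 68% of all tested genes were called.

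The 68 peaks in 27 of the 49 genes lay in the 3′ UTR (40) or in coding sequence (28), and 55 had a summit within 150 bases of the stop codon. No share over all genes or all peaks was taken for these counts, so they are not set against other genes. AT2G31610 (S3) was the one gene with a peak in all 6 lists, with summits 66 to 71 bases past the stop codon and a fold of 2.04 to 2.07 in the control lists and 2.12 to 3.24 in the cold lists. AT5G28060 (S24), emb2386 (L19) and RPL24B (L24) were the others called in both conditions. AT5G28060 had its summits 21 or 22 bases before the end of the stop codon in 2 control and 2 cold lists.

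Called in control only were RPL3A, AT3G13580, RPL10C, AT3G53870, RPS15A, AT1G34030 and RACK1C, and called in the cold only were AT3G09630, EMB2296 and AT5G35530. Of these 10 genes, RPL10C and AT3G53870 had no peak at this q in any cold list and AT5G35530 none in any control list. Without the limit on q, RPL10C had a peak in 2 cold lists, AT3G53870 in 3 cold lists and AT5G35530 in 3 control lists. The other genes of the 10 had a peak at this q in 1 list of the other condition. A call in 1 condition is therefore not a test of a difference. RACK1C had summits 140 and 142 bases past the stop codon in 2 control lists and 141 bases past it in 1 cold list, with folds of 2.57, 2.28 and 2.82. RACK1B had 1 list in each condition, and RACK1A had no peak at this q. AT3G13580, which lost share within L7, had a summit 140 or 141 bases past the stop codon in all 3 control lists, with folds of 3.63, 2.93 and 2.78, and 143 bases past it in 1 cold list.

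**Figure D5:**
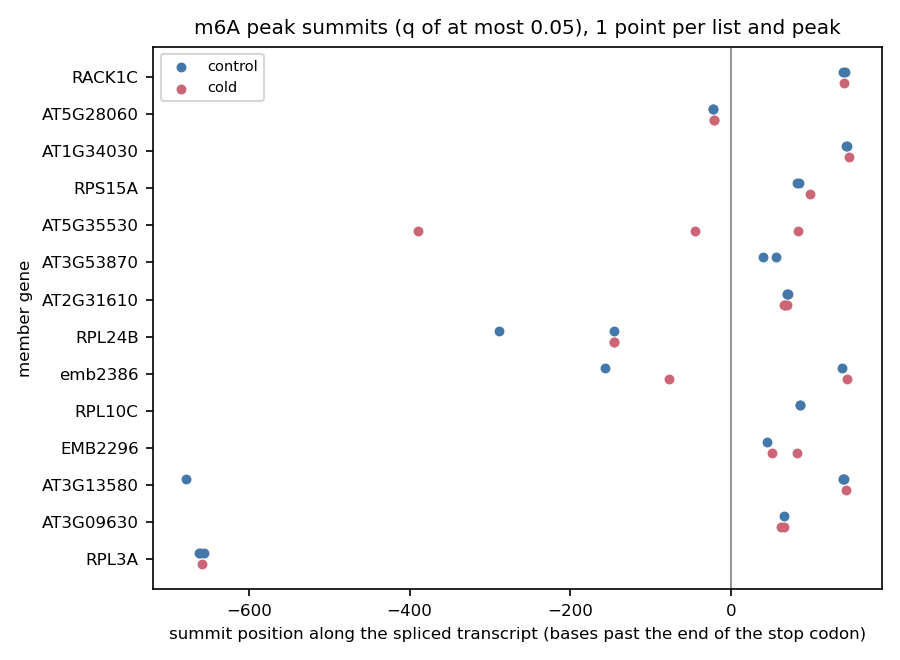
Summits of m6A peaks with a q of at most 0.05 along the spliced transcript (horizontal axis, bases past the end of the stop codon) for the 14 genes called in either condition (vertical axis), 1 point per list and peak, control in blue and cold in red. AT2G31610 has all of its 6 summits between 66 and 71 bases past the stop codon, and RPL3A has its summits in coding sequence.

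The 30 genomic bases around a summit, not spliced, are shown for 5 of these genes, from the list with the lowest q. The region named is that of the summit. They lie at chr2:13451720-13451749 (AT2G31610, plus strand, 3′ UTR), chr3:4435234-4435263 (AT3G13580, plus strand, 3′ UTR), chr3:6210954-6210983 (RACK1C, minus strand, 3′ UTR), chr5:10069799-10069828 (AT5G28060, minus strand, coding) and chr1:16267850-16267879 (RPL3A, plus strand, coding), in TAIR10.1. They are written as DNA on the strand of the gene, with matches in capitals to the usual m6A context, which is 2 purines, then A, then C, then any base but G.
AT2G31610: acttttctacttttgacactctctagtcgt
AT3G13580: ttataagtttgaaattgtaaGAACAcatca
RACK1C: taatttccagaagagaaaaAAACAatccat
AT5G28060: gagtgtAGACCaaggctggtgataccaaga
RPL3A: taattacagatcaggaagatgaagggattg
In these genomic letters AT3G13580, RACK1C and AT5G28060 held 1 match each, and AT2G31610 and RPL3A held none. All windows were cut without splicing, so they can include intron bases. Read in the frame of their genes, the AT5G28060 and RPL3A windows hold a stop codon (TAG and TAA) before the summit. These 2 windows therefore begin outside the coding sequence. The AT5G28060 match starts within that TAG, so it is not shown to be a site in the mRNA. Over the best peak of each of the 27 genes, 9 windows held a match (33.3%), against 35.7% of all 46976 nuclear peak windows.

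The remaining genes for ribosomal proteins were followed as a list of their own. Of 161 other ribosomal protein genes tested in mRNA, 50 rose and 2 fell (median 0.38), where 13.4% of all genes rose and 12.3% fell. With library totals 9 of the 161 rose and 2 fell, where 7.08% of all genes rose and 14.9% fell. When 1 mRNA library was left out, the number that rose ranged from 10 to 53. The 10 were without control library 2 (7.33% of all genes) and the 53 without control library 1 (10.4%). With the contrast from all 10 libraries, 14 of 162 rose, where 13.7% of all genes rose. AT1G07070, for L35a, rose by 1.14 (SE 0.215, edgeR adjusted p = 0.00674) and AT1G80750 by 1.06 (SE 0.166, edgeR adjusted p = 0.00314). The genes that fell were AT5G39850, for S9 (-1.7, SE 0.204, edgeR adjusted p = 0.00111), and AT2G37600, for L36 (-0.77, SE 0.167, edgeR adjusted p = 0.0115). In polysomal RNA, AT1G80750 and AT3G58700, for L11, rose (2 of 162, median 0.95), where 3.87% of all genes rose. The median of these 162 genes was 1.41 without cold library 2 and 0.34 without cold library 1. Their interaction had a median of 0.48, and of -0.14 without cold polysomal library 1. Of 14 translation elongation factor genes, 3 rose in mRNA, among them AT5G60390, for eEF1A (0.61, SE 0.165, edgeR adjusted p = 0.0277). With library totals, without cold mRNA library 1 or without control mRNA library 2, 0 rose. In each of these settings 2 were still called lower. The 2 that fell were AT5G12110, for eEF1B (-2.27, SE 0.377, edgeR adjusted p = 0.00543), and AT1G69410, for eIF5A (-1.04, SE 0.188, edgeR adjusted p = 0.00565). In polysomal RNA 0 of the 14 passed edgeR's test, with 3 higher and 2 lower by unadjusted p under 0.05.

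Markers of dividing cells, where ribosomal protein genes are high, were followed as a list of 10. They summed to 143, 144 and 108 CPM in control mRNA and 168, 164 and 138 CPM in cold mRNA, and to 263 and 173 CPM in control against 226 and 130 CPM in cold polysomes. MCM5, a subunit of the replicative helicase, rose in mRNA (0.51, SE 0.159, edgeR adjusted p = 0.0443), and the cyclin CYCB1;2 fell in polysomal RNA (-1.12, SE 0.25, edgeR adjusted p = 0.049). Neither list call was made when any 1 library was left out, and that in mRNA was also lost with DESeq2 and with library totals. The part of cell numbers in the changes of the 49 genes was not tested.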

How the data were processed

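Per the labels, whole seedlings gave 6 mRNA, 4 polysomal and 6 m6A samples, and libraries came from a kit that keeps strand. Per the submitters' processing notes, STAR, HTSeq and MACS2 were used on TAIR10; tool versions, how strand was set and the annotation used are not given in the sources used here. The authors deposited read counts per gene, in which reads with several alignments go to no gene, and for each peak a score, a fold ratio, a −log10 p and a −log10 q. Peak lists were deposited 1 per sample. Rows that name no gene were left out of library sizes. Their share was 68.8% to 93.4% of the tallied reads in mRNA libraries and 6.21% to 7.19% in polysomal ones.

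Counts were tested with edgeR 4.0.16 (TMM, filterByExpr, quasi-likelihood test, Benjamini-Hochberg adjustment over all genes, threshold 0.05) in R 4.3.3, each fraction on its own and the interaction over 10 libraries, with DESeq2 1.42.0 as an alternative. Levels are CPM, and log2 ratios add 0.5. Paralog shares used counts per kb of exon and exact permutation tests. The fits and the share test were tested on simulated data. The simulated shares carried sampling noise alone, while these libraries varied by more, so that check does not show how the share test performs here. Named genes were the largest rises and falls past the threshold, the members of the 5 families whose shares moved most, RACK1, the extremes of level, and genes with m6A calls. The members, lists and tests were chosen with earlier results of these data known. No 2 libraries of a group agreed within sampling noise (chi-square per degree of freedom at least 11.4). The values of 1 of the 49 genes are not reported here on their own.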

Additional observations from a re-analysis of the deposited data

How the results depend on the processing

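The count of called genes in mRNA was 19, where 13.4% of all genes rose. With the contrast taken from all 10 libraries it was 8, where 13.7% of all genes rose. It was 3 with library totals (7.08% of all genes) and 3 to 21 when 1 library was left out (7.33% to 13.4%). In polysomal RNA the count of 2 became 29 with DESeq2, 32 from all 10 libraries, 1 with library totals and 7 without a filter, and ranged from 0 to 41 without 1 library. Of all genes, 8.91% rose in polysomal RNA with DESeq2 and 10.7% with the contrast from all 10 libraries. With library totals 3.16% of all genes rose, so the 1 of 49 was not above that share. Without a filter 4.9% of all genes rose. The replicate block gave 16 in polysomal RNA, where 11.5% of all genes rose and 12% fell. It gave 16 in mRNA, where 11.7% of all genes rose and 11.1% fell. In mRNA, replicate numbers showed no pairing (r of same-numbered deviations -0.043, -0.027 and 0.224, of differently numbered ones -0.246 to 0.309). In polysomes r was 0.464 for same-numbered and -0.464 for differently numbered libraries. With 2 libraries a group these values mirror each other, so they cannot settle whether polysomal replicates were paired. The interaction count of 0 became 1 with DESeq2, where 0.98% of all genes were called with a larger change in polysomes. It stayed at 0 without any 1 mRNA library. Without 1 polysomal library the median estimate of the 49 genes ranged from -0.035 to 0.817. Of the paralog shares, 11 passed; 0 did with the replicate block, whose smallest p is 0.0625, and 20 of 57 with filled families, and 0 to 12 without 1 library. Genes with m6A numbered 11 in control and 7 in the cold. They were 7 and 3 at a q of at most 0.01, where 25% and 20% of all tested genes were called. With all deposited peaks they were 48 and 47 (73.7% and 68% of all genes). In 3 of 3 lists they were 3 and 1 (18% and 10% of all genes). In 1 of 3 lists they were 25 and 19 (56% and 51% of all genes). Without 1 list they were 4 to 9 in control (22% to 27% of all genes) and 1 to 7 in the cold (13% to 25%). The cause was not tested.

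Signs turned in 9 of 494 values for single genes and shares. In polysomal RNA, AT3G13580 ranged from -0.81 to 0.02 without 1 library. AT5G35530 was at -0.01 with the replicate block and at -0.4 to 0.41 without 1 library (-0.01 without control library 1), and AT3G04920 was at -0.37 to 0.64; both were below 0 without cold library 1. None of these had passed. The share of AT2G01250 was -4.32 points in the filled family. That of AT3G53870 ranged from -1.48 to 0.93 without 1 library, with 0.12 without cold mRNA library 1 or control mRNA library 3. Another 48 of these values lost a call and 26 gained one. The depth behind the peak lists is unknown, so a gene without a called peak is not shown to be unmethylated.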
